A study of Caenorhabditis elegans with 2 samples.

Results

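The genes of the large subunit of the cytosolic ribosome were examined for chromatin association of REPO-1, the worm ortholog of the splicing factor SF3A2. The set was taken by name: the protein-coding genes of the WBcel235 annotation named rpl or rla followed by a number. There were 50 such genes among 19973 protein-coding genes. The ChIP-seq material was young adult Caenorhabditis elegans, taken whole, of strain OP688, genotype unc-119(tm4063) III; wgIs688. The integrated transgene wgIs688 encodes REPO-1 with a GFP-FLAG tag at its C-terminus, and an anti-GFP antibody was used on sonicated chromatin. There was 1 group of 2 biological replicates, each of mixed-sex worms (males and females pooled) collected 53 hours after synchronisation as starved L1 larvae. No untagged strain or other genotype formed a comparison group. All tissues of the animals, germline included, contribute to 1 value, so a peak cannot be given to a cell type. The promoter that drives the transgene is not given in the sources used here. With 1 group no difference between conditions can be tested, and every share below is a description over genes.

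Ribosomal protein genes are among the most strongly transcribed genes of an animal, and most are short with few introns. REPO-1 belongs to the SF3a complex of the U2 snRNP, which recognises the branch point of introns. Introns are largely removed while RNA polymerase II is still on the gene, so a splicing factor can be crosslinked to chromatin through the nascent transcript. In C. elegans many mRNAs are also trans-spliced to a short leader, and for such genes the annotated 5′ end is the trans-splice site, with initiation further upstream. RNA polymerase II also stays on the template beyond the site of 3′ end formation. Some worm large subunit genes regulate themselves by splicing: rpl-3 and rpl-12 make alternative, unproductive mRNAs that mRNA surveillance removes.

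The strongest peaks of the set lay upstream of 5′ ends, and the bases under their summits are shown because 4 of them share a short word that is taken up again below. Each is 101 bases of ce11 centred on a summit, in the orientation of the gene, and none overlaps an annotated transcript. Capitals mark AGTGTA or its reverse complement. The first 4 are the summits of rpl-3 (chrIII:3867500-3867600, plus strand), rpl-20 (chrIV:4750028-4750128, minus), rpl-15 (chrIV:654875-654975, minus) and rpl-35 (chrIII:7854645-7854745, plus). The next pair, at rpl-7A (chrIV:4390601-4390701, minus) and rpl-29 (chrIV:13881914-13882014, plus), are weaker 5′ peaks shown for comparison. The last is the 3′ peak of rpl-7A (chrIV:4388983-4389083, minus).
rpl-3 5′ peak: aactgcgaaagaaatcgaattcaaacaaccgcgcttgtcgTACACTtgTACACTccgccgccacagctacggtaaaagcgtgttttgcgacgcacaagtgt
rpl-20 5′ peak: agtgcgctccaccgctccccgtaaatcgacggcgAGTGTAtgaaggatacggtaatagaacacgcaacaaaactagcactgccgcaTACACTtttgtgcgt
rpl-15 5′ peak: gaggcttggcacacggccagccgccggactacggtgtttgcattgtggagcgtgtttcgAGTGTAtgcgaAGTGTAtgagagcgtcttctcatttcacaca
rpl-35 5′ peak: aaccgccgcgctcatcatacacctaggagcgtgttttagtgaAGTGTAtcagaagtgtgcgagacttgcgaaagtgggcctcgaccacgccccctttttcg
rpl-7A 5′ peak: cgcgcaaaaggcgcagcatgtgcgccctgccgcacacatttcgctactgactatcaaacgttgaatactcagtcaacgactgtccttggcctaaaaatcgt
rpl-29 5′ peak: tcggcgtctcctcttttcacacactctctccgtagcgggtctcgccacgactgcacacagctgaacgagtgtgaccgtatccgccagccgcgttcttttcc
rpl-7A 3′ peak: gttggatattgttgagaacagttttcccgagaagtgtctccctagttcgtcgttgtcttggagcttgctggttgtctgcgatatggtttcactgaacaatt

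REPO-1 peaks were found at the ends of 1 in every 2 of these genes. A gene end was counted when the summit of a replicated peak lay within 500 bp outside the gene or 200 bp inside it. The replicated list held 1789 peaks, which were the 1789 strongest of the 30000 in the list called on both replicates together (the pooled list). At the 5′ end, 12 of 50 genes had a replicated summit (24.0%, Wilson 95% interval 14.3 to 37.4), where the share of all protein-coding genes was 3.49%. At the 3′ end the count was 20 of 50 (40.0%, interval 27.6 to 53.8), beside 4.48% of all genes. Replicated summits at both ends were found for 7 genes (14%, interval 6.95 to 26.2), beside 0.656% of all genes. At either end 25 genes had one (50%, interval 36.6 to 63.4), beside 7.31%. The shares of the set thus lay above the background at each end. The intervals of the 5′ and 3′ shares overlap and the difference between the ends was not tested. With peaks at or above the median signal the counts were 10 and 11, beside 1.95% and 2.33% of all genes. Without summits in the opposite-end window of another gene they were 7 and 7, beside 2.11% and 3.11%. The 25 split into 5 genes with a 5′ summit alone, 13 with a 3′ summit alone and 7 with both.

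The pooled list, which has no significance threshold, covered more of the genes. A 5′ summit was listed for 32 of 50 genes (64.0%), beside 25.5% of all protein-coding genes. Shares near this or above it were found in related gene lists, given at the end of the Results. A 3′ summit was listed for 44 of 50 (88.0%), beside 30.5%. Both ends were covered in 29 genes, the 5′ end alone in 3 and the 3′ end alone in 15. The remaining 3 genes, rpl-30, rpl-37 and rpl-42, had no pooled summit at either end.

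**Figure D1:**
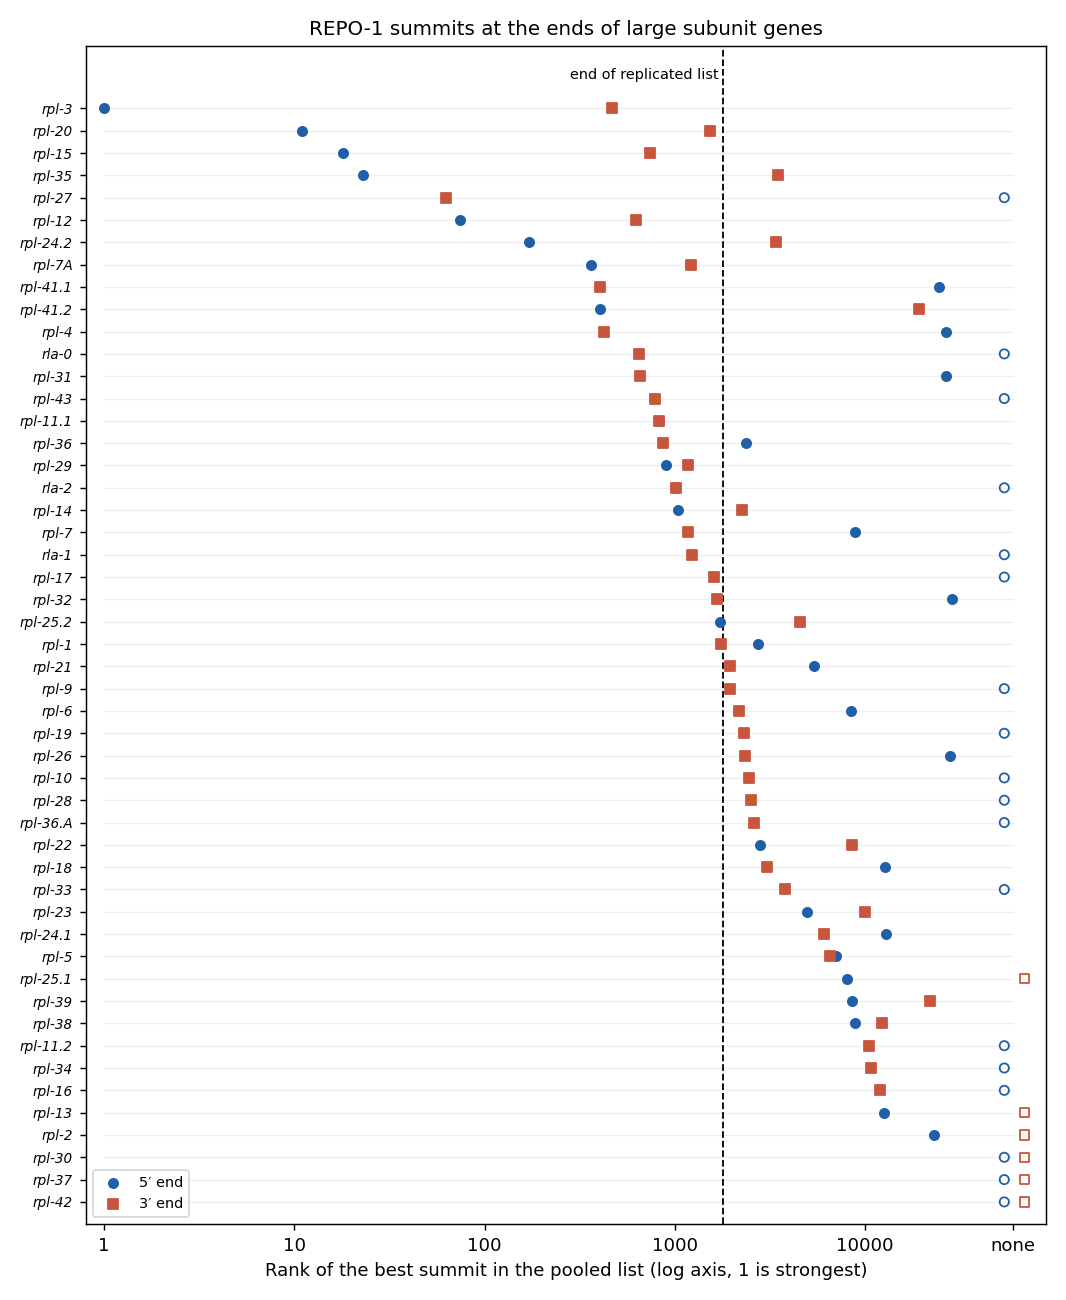
Rank of the best pooled summit at the 5′ end (blue circles) and the 3′ end (red squares) of each of the 50 genes, on a log axis where rank 1 is the strongest of 30000 peaks; open symbols at the right mean that no summit was listed. The dashed line is the end of the replicated list at rank 1789; 5 of the 5′ summits and 1 of the 3′ summits lie at rank 100 or better, and 20 of the 3′ summits lie left of the line.

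Within the replicated list the 5′ peaks ranked better than the 3′ peaks, while over all best pooled summits of the set the order was the other way. The pooled rank had a median of 5167 at the 32 5′ ends with a summit and 2070.5 at the 44 3′ ends, where all genes with a summit gave 10820.5 and 8754. In the replicated list, the median rank of the 12 replicated 5′ summits was 268, where that of all genes with a replicated 5′ summit was 765. For the 20 replicated 3′ summits it was 844.5, beside 849.5 for all genes. The median signal, the authors' value per peak on an unstated scale, was 291.6 at 5′ ends and 178.0 at 3′ ends. A rank of 100 or better was reached by 5 of the 12 5′ summits and by 1 of the 20 3′ summits.

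At 5′ ends the top of the list was made of rpl-3, rpl-20, rpl-15 and rpl-35, whose sequences are printed above. RPL-3 lies close to the peptidyl transferase centre of the ribosome. Its peak at chrIII:3867265-3867743 had a signal of 1217.6, the highest of all peaks, and its summit ranked 1 in both replicates. The summit lay 304 bp upstream of the 5′ end in the pooled list, at a distance of -305 bp in replicate 1 and -298 bp in replicate 2. The peak of rpl-20 (chrIV:4749933-4750223) had a signal of 796.0 at rank 11, with ranks 14 and 8 in replicates 1 and 2. Its summit lay 300 bp upstream of rpl-20 and 162 bp upstream of the divergent gene Y17G9B.5, so it is the only 1 of the 12 that was nearer to the 5′ end of another gene. The peak of rpl-15 (chrIV:654789-655058) had a signal of 708.5 at rank 18, with ranks 24 and 11, and lay 349 bp upstream. RPL-35 sits near the exit of the tunnel through which the nascent chain leaves. Its peak (chrIII:7854553-7854826) had a signal of 651.2 at rank 23, with ranks 41 and 17, and lay 439 bp upstream, the farthest of the 12. All 4 summits were intergenic and more than 250 bp from the annotated 5′ end.

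The next 5′ peaks were closer to the gene. RPL-12 forms the base of the stalk that recruits translation factors. Its peak (chrIV:13240614-13240767) had a signal of 463.8 at rank 74, with ranks 94 and 61, and its summit lay 26 bp upstream of the 5′ end. The product of rpl-24.2 is related to a factor of large subunit assembly in yeast. Its peak (chrI:9669065-9669500) had a signal of 334.4 at rank 171, with ranks 265 and 141, and lay 132 bp upstream, inside an intron of C03D6.1. The peak of rpl-7A (chrIV:4390433-4390868) had a signal of 248.8 at rank 365, with ranks 526 and 297, and lay 61 bp upstream. In each of these 3 genes the rank was better in replicate 2, as it was for rpl-20, rpl-15 and rpl-35.

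The remaining 5′ peaks were in the weaker range of the list. The peak of rpl-41.2 (chrI:4789802-4790237) had a signal of 237.1 at rank 407, with ranks 549 and 402, and lay 272 bp upstream. That of rpl-29 (chrIV:13881746-13882181) had a signal of 173.3 at rank 895, with ranks 1398 and 791, and lay 261 bp upstream. That of rpl-14 (chrI:9688708-9689143) had a signal of 162.4 at rank 1040 and lay 271 bp upstream. It was the only 1 of the 12 missing from the 1789 strongest peaks of a replicate, with rank 905 in replicate 1 and 2649 in replicate 2. That of rpl-25.2, whose product lies near the tunnel exit, had a signal of 133.5 at rank 1724 (chrI:8329542-8329977), with ranks 1682 and 1303, and lay 113 bp upstream.

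The rpl-11.1 summit differed in kind from the other 11. RPL-11 binds the 5S rRNA. The peak (chrV:3585226-3585661, signal 180.2, rank 826, ranks 1039 and 964 in the replicates) had its summit inside the coding sequence, 75 bp before the nearest annotated transcript end. It counted at the 5′ end only because 1 annotated transcript starts 113 bp before it, and with the outermost gene ends alone the 5′ count was 11. It is 1 of the 7 genes counted at both ends, all from the same summit.

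At 3′ ends the strongest peak was that of rpl-27. This peak (chrI:1835486-1835718) had a signal of 486.3 at rank 63, with ranks 63 and 72, and lay 162 bp beyond the 3′ end. It was also 61 bp upstream of egl-30, which encodes a G protein alpha subunit and starts 223 bp beyond rpl-27 on the same strand. No pooled summit was listed at the 5′ end of rpl-27.

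The genes of the stalk were put together as a group after their values had been seen, so their count is only a description. All 4 had a replicated 3′ summit, beside 20 of 50 genes of the set and 4.48% of all genes. The stalk proteins encoded by rla-0, rla-1 and rla-2 recruit translation factors, on the base formed by RPL-12. The 3′ peak of rpl-12 (chrIV:13239229-13239664) had a signal of 203.3 at rank 625, with ranks 702 and 511, and lay 140 bp beyond the gene and 33 bp upstream of tag-115. The rla-0 peak (chrI:10569211-10569646) had a signal of 200.9 at rank 645, with ranks 840 and 592, and lay 412 bp beyond the gene. It fell within 16 bp of the 5′ end of F25H2.12, in a coding exon of tct-1, and within 200 bp of the snoRNA gene F25H2.14. The rla-2 peak (chrIV:13369089-13369524) had a signal of 163.7 at rank 1019, with ranks 1349 and 1084, and lay 118 bp beyond the gene and 64 bp upstream of the nearest transcript start of agt-1, in a coding exon of that gene. The rla-1 peak (chrI:2068597-2069032) had a signal of 151.9 at rank 1230, with ranks 1273 and 1275, and lay 271 bp beyond the gene in a coding exon of the convergent gene arl-13. All 4 of these 3′ ends had a summit among the 1789 strongest in both replicates. At rla-0 the replicate summits lay apart, 347 and 495 bp beyond the gene. None of the rla genes had a pooled summit at its 5′ end.

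A further 3 of the 3′ peaks were at genes whose products line the exit tunnel or lie near its end, a group put together after the values had been seen. The peak of rpl-4 (chrI:4645158-4645593) had a signal of 234.4 at rank 426, with ranks 581 and 294, and lay 286 bp beyond the gene in a coding exon of the convergent gene lmd-2. That of rpl-31 (chrI:13652432-13652867) had a signal of 199.6 at rank 654, with ranks 767 and 501, and lay 299 bp beyond the gene over linc-1, a long non-coding RNA gene. That of rpl-17 (chrI:1157535-1157970) had a signal of 136.4 at rank 1608 and lay 266 bp beyond the gene in a coding exon of Y48G8AL.7. The first 2 ends had a summit among the 1789 strongest of each replicate, at rpl-4 lying 278 and 161 bp beyond the gene. The end of rpl-17 did so in replicate 1 (rank 1192) but not in replicate 2 (rank 5520). For rpl-35 and rpl-25.2, also near the tunnel exit, 3′ summits were listed below the replicated list, at ranks 3508 and 4579. The tunnel protein gene rpl-39 had its 5′ and 3′ pooled summits at ranks 8590 and 21977. The 3′ pooled summits of rpl-19 and rpl-26, whose products also lie around the tunnel exit, ranked 2321 and 2339, and rpl-25.1 had none.

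Apart from rpl-11.1, the genes with peaks at both ends ranked better at the 5′ end, rpl-12 included. At rpl-3 the 3′ peak (chrIII:3869367-3869573) had a signal of 226.4 at rank 467, with ranks 220 and 1864, and its summit lay 6 bp from the nearest annotated transcript end of rpl-3. At rpl-15 it (chrIV:653099-653534) had a signal of 189.0 at rank 743, with ranks 622 and 1061, and lay 163 bp beyond the gene in an intron of K11H12.1. At rpl-7A it (chrIV:4388815-4389250) had a signal of 152.6 at rank 1215, with ranks 1030 and 1902, and lay 110 bp beyond the gene, between it and the 3′ end of tald-1. In all 3 genes the 3′ peak ranked better in replicate 1, opposite to the 5′ peaks of rpl-15 and rpl-7A. At rpl-29 (chrIV:13882662-13883097) the signal was 155.0 at rank 1173, 262 bp beyond the gene in a coding exon of thoc-7, with ranks 739 and 5473. At rpl-20 (chrIV:4748476-4748911) it was 139.3 at rank 1532, 429 bp beyond the gene in an intron of cyc-2.1, with ranks 3964 and 1390. These last 2 peaks were thus among the strongest of 1 replicate only.

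The remaining 3′ peaks were at 6 genes. That of rpl-41.1 is the rpl-41.2 5′ peak, 428 bp beyond rpl-41.1. The peak of rpl-43 (chrII:14155683-14156118) had a signal of 184.2 at rank 789, with ranks 1261 and 562, and lay 332 bp beyond the gene in a coding exon of xrn-2, which encodes a nuclear 5′ to 3′ exoribonuclease. The peak of rpl-36 (chrIII:7180689-7181124) had a signal of 175.8 at rank 863, with ranks 956 and 1359, and lay 260 bp beyond the gene in an intron of ndab-2. Both were found among the strongest of each replicate. The peak of rpl-7 (chrI:112246-112681) had a signal of 155.2 at rank 1171, 47 bp beyond the gene, with ranks 1005 and 2382. The weakest were those of rpl-32 (chrII:9056186-9056621, signal 134.9, rank 1668, 93 bp beyond) and rpl-1 (chrI:2875009-2875444, signal 132.9, rank 1745, 171 bp beyond). RPL-1 forms the mobile L1 stalk near the ribosomal exit site. These last 2 were outside the 1789 strongest of both replicates, with ranks 2018 and 2533 for rpl-32 and 2038 and 2652 for rpl-1.

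**Figure D2:**
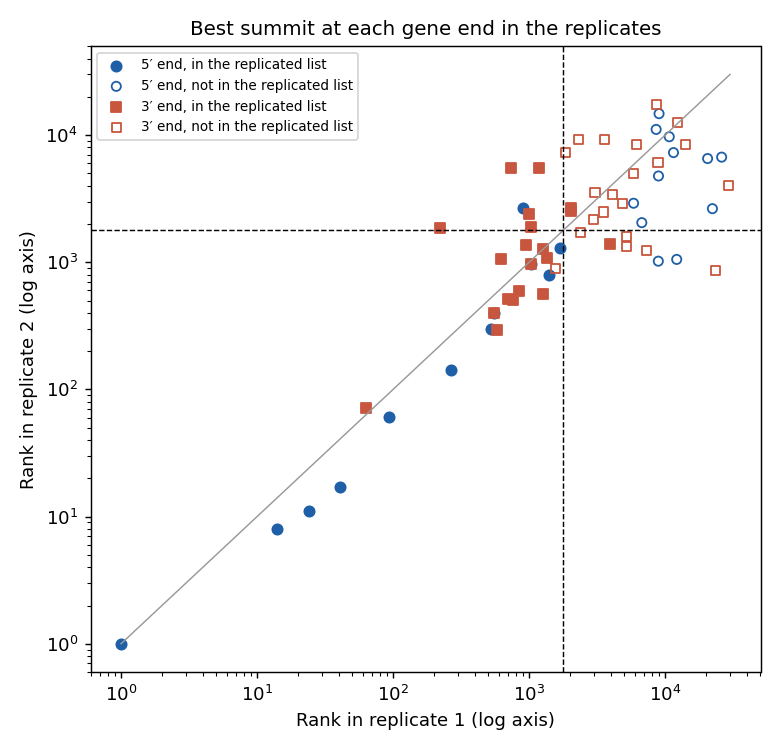
Rank of the best summit at each 5′ end (blue circles) and 3′ end (red squares) in replicate 1 against replicate 2, both on log axes, for ends with a summit in both replicate lists; filled symbols are in the replicated list, dashed lines mark rank 1789 and the grey line equal ranks. The strong 5′ summits lie close to the line of equal ranks, and filled 3′ symbols spread to ranks 3964 and 5520.

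The 2 replicates gave similar counts for the set. Among the 1789 strongest peaks of replicate 1, 13 genes had a 5′ summit, beside 3.27% of all genes, and 18 had a 3′ summit, beside 4.48%. Among those of replicate 2, 13 had a 5′ summit, beside 3.41%, and 20 had a 3′ summit, beside 4.46%. Of the 12 replicated 5′ summits, 11 were in the top of both replicates, and of the 20 at 3′ ends, 12 were. More of the 3′ summits rank near the end of the list, 9 of 20 past rank 1000 against 2 of 12, so these counts cannot be told apart from a difference in strength. At least 1 replicate held 12 of the 12 and 18 of the 20. These counts take the best summit in the window of each replicate, which need not be at the same place in both. At the 5′ end of rpl-25.2 the distances were 4 bp in replicate 1 and -182 bp in replicate 2. Some 5′ ends outside the replicated list were in the top of 1 replicate only, as rpl-16 with rank 1467 in replicate 1 and no summit in replicate 2.

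Ends without a replicated summit often had a weaker one, also in genes whose other end is in the replicated list. At 3′ ends, 24 genes had their best pooled summit below that list, with ranks from 1947 to 21977 and a median of 3648, and 12 of these lay within the next 1789 ranks. The best were rpl-21 (rank 1947, 344 bp beyond the gene), rpl-9 (1955, 336 bp), rpl-6 (2186, 190 bp), rpl-14 (2245, 4 bp) and rpl-19 (2321, 192 bp). The 3′ end of rpl-21 ranked 1567 in replicate 1 and 897 in replicate 2, within the strongest 1789 of both, but the summits lay 392 and 103 bp beyond the gene and are not at the same place. At 5′ ends, 20 genes had one, with ranks from 2360 to 28566 and a median of 8850.5, and 3 lay within the next 1789. The best were rpl-36 (rank 2360, 405 bp upstream), rpl-1 (2728, 279 bp), rpl-22 (2810, 235 bp), rpl-23 (4955, 338 bp) and rpl-21 (5379, 303 bp). In replicate 2 the ranks of rpl-36 and rpl-22, 1020 and 1053, were within the strongest 1789, and in replicate 1 they were 8907 and 12162.

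Of the 3 genes with no pooled summit, rpl-30 encodes a protein that, in yeast, binds its own pre-mRNA and blocks its splicing. Neither replicate listed a summit at rpl-30, rpl-37 or rpl-42 at either end. The other 5S rRNA-binding protein gene, rpl-5, had weak summits at both ends (ranks 7053 and 6539). RPL-2 lies near the peptidyl transferase centre as RPL-3 does, and rpl-2 had a 5′ summit at rank 23160 and no pooled 3′ summit. The gene set thus spans the whole range of the peak list, from rank 1 to no peak.

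**Figure D3:**
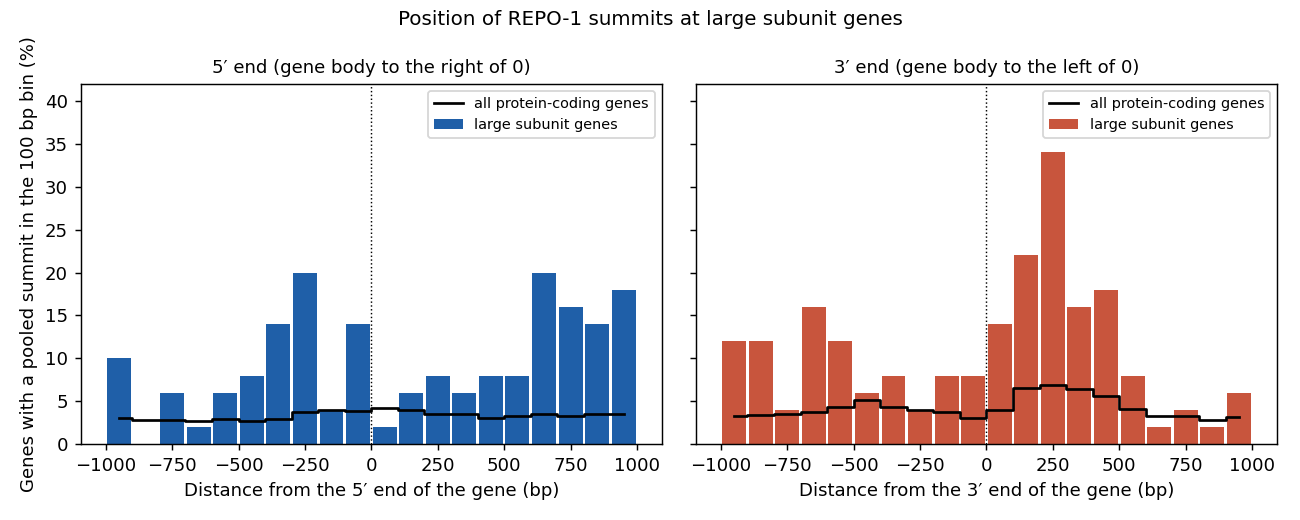
Share of genes with a pooled summit in each 100 bp bin, by distance from the 5′ end (left, blue bars) and the 3′ end (right, red bars) of the 50 genes, with all 19973 protein-coding genes as a black line. The highest bars of the set are 20% at 200 to 300 bp upstream of the 5′ end, equalled by a bin inside or beyond these short genes, and 34.0% at 200 to 300 bp beyond the 3′ end.

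Most summits lay outside the genes of the set. Of the 12 replicated 5′ summits, 11 were upstream of the annotated 5′ end, with a median distance of 266 bp, and 10 were intergenic. The median over all genes with a replicated 5′ summit was -168 bp. Of the 20 at 3′ ends, 19 were beyond the nearest annotated transcript end, with a median of 215.5 bp, where all genes gave 209 bp. The rpl-3 summit, 6 bp beyond a transcript end, was still inside the gene, in its UTR. Of the 20, 4 were intergenic. The window reaches farther outside the gene than inside it, so a share over all genes is needed beside these counts. Of the best pooled summits of the set, 87.5% lay upstream of the 5′ end, beside 65.9% for all genes. At 3′ ends 90.9% lay beyond the transcript end, beside 80.8%. In the pooled list 10 of the 50 genes (20%) had a summit 200 to 300 bp upstream of the 5′ end, beside 3.72% of all genes. In the bin 200 to 300 bp beyond the 3′ end there were 17 genes (34.0%), beside 6.85%, and in the bin before it 11 (22.0%), beside 6.52%. For all genes, too, the bin 200 to 300 bp beyond the 3′ end was the highest of those around the 3′ end. The first 100 bp inside the 5′ end held a pooled summit in 1 gene (2.0%), beside 4.24% of all genes. The genes are short, with a median length of 753.5 bp from 276 bp (rpl-43 and rpl-37) to 1734 bp (rpl-3), where all protein-coding genes had a median of 2027 bp. In 6 genes under 400 bp the windows at the 2 ends overlap.

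Most 3′ summits were also close to a start of the next gene. Of the 20, 13 lay in the 5′ window of another protein-coding gene and 12 were nearer to that gene's 5′ end than to the 3′ end of the ribosomal protein gene. The share was then taken apart by the neighbour. Of 22 genes with a same-strand gene starting within 500 bp beyond the 3′ end, 12 had a replicated 3′ summit, beside 6.50% of 3997 protein-coding genes of that kind. Of 28 with none, 8 had one, beside 3.97% of 15976. The counts lay above the background in both groups, and the effect of a neighbour was not tested. The group of 28 is not free of neighbouring starts: the rpl-41.1 summit in it lay 272 bp upstream of rpl-41.2. When summits in the opposite-end window of another gene were left out, 7 genes kept a 3′ summit, beside 3.11% of all genes: rla-1, rpl-3, rpl-4, rpl-7A, rpl-11.1, rpl-31 and rpl-32. For the other 13 the peak cannot be told apart from a peak at the start of the neighbour. Of the 7 kept, 4 (rpl-3, rpl-7A, rpl-11.1 and rpl-32) lay in the 3′ window of another protein-coding gene and 3 in no other window. Among those 3, the summits of rla-1 and rpl-4 were nearer to the neighbour's 3′ end, at 234 and 283 bp. That of rpl-31 lay over linc-1.

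At 5′ ends, too, most summits lay in the window of another gene, though only 1 of the 12 was nearer to another gene's 5′ end. Of the 12 summits, 4 lay in another gene's 5′ window, 5 in another gene's 3′ window and 3 in neither. Leaving out those in another gene's 3′ window left 7 genes, beside 2.11% of all genes. Of 29 genes with a divergent gene starting within 1000 bp upstream, 6 had a replicated 5′ summit, beside 6.39% of 3539 protein-coding genes of that kind. Of 21 with none, 6 had one, beside 2.87% of 16434. A gene on the same strand that ends less than 500 bp before the 5′ end, the arrangement of genes in operons, was present at 0 of the 12 genes with a 5′ summit and 5 of the 38 without. These counts are small, the share over all protein-coding genes is not given here, and no difference was tested.

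Pairs of paralogs were not alike. The tandem pair rpl-41.1 and rpl-41.2, which encode a very small basic protein, share 98.5% of aligned coding bases. They lie 700 bp apart, and the peak between them is counted at the 3′ end of the first and the 5′ end of the second. How reads that match both were placed is not given in the sources used here. The coding sequences of rpl-11.1 and rpl-11.2 were 84.2% identical, and rpl-11.1 had a replicated summit, while rpl-11.2 had a pooled 3′ summit at rank 10493 and no pooled 5′ summit. For rpl-25.1 and rpl-25.2 (68.9% identical), rpl-25.2 had the replicated 5′ summit at rank 1724 and rpl-25.1 a pooled 5′ summit at rank 8027. For rpl-24.1 and rpl-24.2 (45.7%), the 5′ ranks were 12938 and 171.

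By chromosome, a replicated summit at either end was found at 13 of the 17 genes on chromosome I, beside 9.21% of all protein-coding genes there. On II it was 2 of 9, beside 7.05%, and on III 3 of 9, beside 10.8%. On IV it was 6 of 8, beside 8.41%, on V 1 of 5, beside 4.99%, and on X 0 of 2, beside 5.16%. The groups are small, and differences between chromosomes were not tested.

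The word AGTGTA was noticed in the printed sequences and then counted, so its count in them is a description. In the 101 bases shown, rpl-3, rpl-20 and rpl-15 held 2 copies each and rpl-35 held 1, counting both strands. Within 150 bp of the summit it occurred at these 4 of the 12 replicated 5′ summits, and at 0 of the 6 whose sequences are not shown. It occurred at 1 of the 20 genes with a pooled 5′ summit alone and at 2 of the 20 replicated 3′ summits. Over all genes, 11.4% of 589 replicated summits at 5′ ends and 10.9% of all 1789 held it, and 17.0% of the 100 strongest. It was in 2 of 50 promoters of the set, taken as 250 bp before to 50 bp after the gene start, beside 10.8% of all promoters. The summits of rpl-3, rpl-20, rpl-15 and rpl-35 lay 300 to 439 bp upstream, outside that window. The promoter count therefore does not cover the copies shown. The 4 genes that hold it are those with the 4 strongest 5′ peaks.

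Other words were counted over the same 301 bp windows on both strands. TTTCAG, the typical end of a worm intron and so also of trans-splice sites, was in 38 of 50 promoters of the set (76.0%), beside 51.7% of all promoters, and at 6 of the 12 replicated 5′ summits, beside 42.6% of those of all genes. A run of 8 T, or of A on the other strand, was at 0 of the 12 5′ summits and 0 of the 20 3′ summits, beside 21.4% and 22.3%. In promoters it was in 4 of 50 (8.0%), beside 32.5%. GAGAGA was at 4 of the 12 5′ summits, beside 32.3%, and at 8 of the 20 3′ summits, beside 22.3%. TATAAA was at 1 of the 12 5′ summits, beside 25.1%. These windows overlap partly with the promoters, and a word is no evidence of a bound factor.

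Small nucleolar RNA genes, many of which sit in introns of ribosomal protein genes, were inside 8 of the 50 genes (12 snoRNA genes in all). Of these 8 hosts, rpl-15 and rpl-7A were among the 12 genes with a 5′ summit, and 6 were among the 38 without. A snoRNA gene lay within 200 bp of 0 of the 12 5′ summits and of 1 of the 20 3′ summits, that of rla-0. The snoRNA shares over all protein-coding genes and all replicated summits are not given here, and no difference was tested. Introns were annotated in 48 of the 50 genes, with a median of 2. The 2 genes without introns were rpl-43, which had a replicated 3′ summit, and rpl-37, which had no pooled summit.

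**Figure D4:**
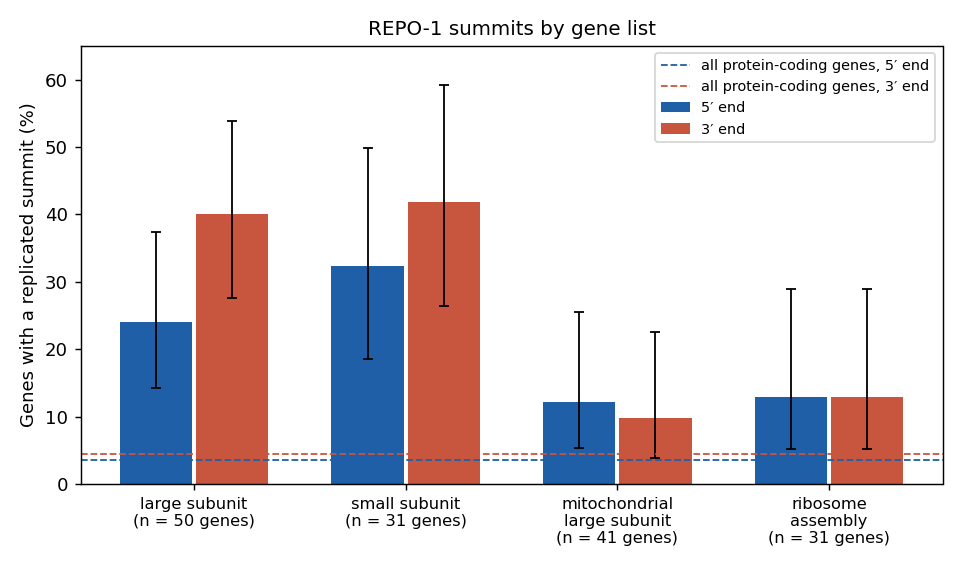
Share of genes with a replicated summit at the 5′ end (blue) and the 3′ end (red) in 4 gene lists, with Wilson 95% intervals that cover counting error over genes only, and the share of all protein-coding genes as dashed lines (3.49% and 4.48%). Large and small subunit genes reach 40.0% and 41.9% at the 3′ end, and the lists of mitochondrial large subunit genes and assembly factors stay under 13% at both ends.

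In the replicated list the small subunit genes gave similar shares. Of 31 genes named rps, 10 had a replicated 5′ summit (32.3%, interval 18.6 to 49.9) and 13 a 3′ summit (41.9%, interval 26.4 to 59.2). Their best 5′ summit, at rps-1, ranked 35, below those of 4 large subunit genes. Genes for the large subunit of the mitochondrial ribosome had 5 and 4 of 41 (12.2% and 9.76%), and ribosome assembly factors 4 and 4 of 31 (12.9% at each end). In the pooled list the 5′ shares of small subunit, mitochondrial and assembly genes were 87.1%, 63.4% and 61.3%, beside 64.0% for large subunit genes. At the 3′ end they were 93.5%, 61.0% and 61.3%, beside 88.0%. The difference between these lists and the large subunit genes was not tested.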

How the data were processed

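Peak lists of REPO-1-GFP ChIP-seq from 2 biological replicates (1 group) were used on ce11, the assembly of WBcel235. Per the text files deposited with each sample, the lists are regions called on each replicate, regions called on both replicates together, and a replicated list derived from these by IDR; a further alignment entered the calls. For the aligner, the peak caller, the IDR threshold and the depth, nothing was given in the sources used. Each peak carries the authors' signal value, on an unstated scale, and their deposited −log10 q-value. Peaks were ranked by signal within a list and signals were not compared between lists; ranking by q-value was an alternative. The lists on ce10 were not used.

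Genes were taken from Ensembl release 115, sequence from the RefSeq copy of WBcel235. Every transcript end of a gene counted, with the best-ranked summit from 500 bp outside to 200 bp inside. Coordinates are 1-based. All genes with a replicated summit at either end are named, with the 5 best others at each end and those with no pooled summit. Wilson 95% intervals cover counting error over genes only. No test was made, since there is 1 group. The genes and lists were chosen with earlier results of these data known; the word AGTGTA, the counts without summits in the opposite-end window of another gene and the counts by neighbouring gene were chosen after these peaks had been seen. Of 36 assembly factor symbols, 31 matched a gene. Coding identity between paralogs is over the columns of a global alignment of the longest coding sequences (biopython 1.88). Computations used Python 3.11.15, numpy 2.4.6, pandas 2.3.3, scipy 1.17.1 and matplotlib 3.10.9, and the assignment of summits to gene ends was tested on simulated data.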

Additional observations from a re-analysis of the deposited data

How the results depend on the processing

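The counts of genes with a replicated summit (12 at the 5′ end, 20 at the 3′ end, 7 at both, 25 at either) depended on the window, the signal threshold and the neighbouring genes. With 200 bp outside and 100 bp inside the gene they were 4, 11, 2 and 13. The shares of all genes were then 1.75%, 2.02%, 0.125% and 3.64%. With peaks at or above the median signal, 11 genes had a 3′ summit and 4 had both, beside 2.33% and 0.23% of all genes. Without summits in the opposite-end window of another gene, an alternative chosen after seeing the data, the counts were 7, 7, 1 and 13. The shares of all genes were then 2.11%, 3.11%, 0.31% and 4.91%. Under the other alternatives (a 1000 bp window, outermost gene ends, nearest gene end, ranking by q-value, region overlap, summits near non-coding genes left out) the counts stayed within 1.5 times those above. With 1 replicate left out, the 5′ count was 13 both times, the 3′ count 18 to 20, both ends 6 and either end 25 to 27, and the pooled counts were 30 to 35 at the 5′ end and 41 to 45 at the 3′ end. Of 96 alternative ranks of named genes, 26 moved by more than the SD of the gene's 2 replicate ranks. The ranks without 1 replicate are those of the other, so this SD is wider where the replicates differ. The count of moved ranks is therefore no measure of robustness. Of 99 alternative counts for the other gene lists, 27 moved by more than 1.5 times. No paired analysis was possible because there is 1 group. Depth is unknown, so no limit on occupancy can be given for the 3 genes without a pooled summit.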
